A study of Mus musculus with 3 samples.

Results

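The genes described here were the very long protein-coding genes of the mouse, and the measurement was H3K36me3 over their bodies in oocytes. A gene was a member when its annotated span on an autosome was at least 300 kb (GENCODE release M21, GRCm38), and a window of 2 kb belonged to it when the midpoint of the window lay inside that span. By this rule 541 genes on 19 autosomes were found, with 149288 of the 1186323 valid windows, which is 12.6% of all windows and 299 Mb of sequence. The genes spanned 300 to 4435 kb, with a median of 451 kb, and held 97 to 2158 valid windows each, with a median of 217.

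The libraries came from fully-grown germinal vesicle (GV) oocytes, the stage in which growth has ended and the nucleus is still intact. The oocytes were wild type, of the C57BL6/Babr strain, and were taken from mice at 25 days of age. In each of 3 replicate pools, about 280 oocytes were processed by native ChIP-seq for ultra-low input, in which chromatin is cut with micrococcal nuclease and pulled down without cross-linking. There was a single group with no treatment, and for replicate 2 a smaller amount of antibody was used.

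H3K36me3 is a trimethylation of histone H3 that the methyltransferase SETD2 places while it travels with elongating RNA polymerase II, so the mark lies over transcribed gene bodies. In growing oocytes this mark goes along with the de novo DNA methylation of transcribed regions, by a link that the study proposes may be indirect. H3K27me3 is the mark of Polycomb repression, and H3K4me3, known from active promoters, also forms broad domains away from promoters in oocytes. Very long genes code to a large extent for proteins of nerve and muscle cells, such as synaptic adhesion molecules, ion channels and receptors, and their bodies are long enough to hold stretches with and without a mark inside a single annotated gene.

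A pair of genes with a domain that began deep inside the body are shown first, because the start of the domain lay close to an annotated start of a shorter transcript. In Gtdc1, a glycosyltransferase-like gene (chr2:44564412-44927657, minus strand, GRCm38), the domain of 188 kb began 65.7 kb downstream of the gene start and 0.275 kb downstream of the start of a shorter protein-coding transcript. In Sgcd, which encodes delta-sarcoglycan of the muscle membrane complex (chr11:46896253-47988969, minus strand), a domain of 216 kb began 609 kb downstream of the gene start, and its edge lay 0.478 kb upstream of the start of a protein-coding transcript. These were chosen after their values were seen. Of 6 domains of at least 100 kb that began over 50 kb inside a gene and within 1 kb of an own transcript start and lay mostly outside other genes, 3 had at most 5 enriched windows in the 40 kb before it, and in 2 of these no printed base lay in an annotated UTR. The 150 bases upstream of each inner start and of the annotated gene start are given 5′ to 3′ on the gene's strand, with CG dinucleotides in capitals.
Gtdc1 inner start, chr2:44862276-44862425: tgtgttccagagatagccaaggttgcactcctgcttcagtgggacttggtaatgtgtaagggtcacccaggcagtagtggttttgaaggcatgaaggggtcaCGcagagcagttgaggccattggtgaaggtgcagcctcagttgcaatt
Gtdc1 gene start, chr2:44927658-44927807: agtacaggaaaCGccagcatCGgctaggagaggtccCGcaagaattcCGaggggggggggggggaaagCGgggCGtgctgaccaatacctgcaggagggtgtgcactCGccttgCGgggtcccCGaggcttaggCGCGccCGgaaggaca
Sgcd inner start, chr11:47379523-47379672: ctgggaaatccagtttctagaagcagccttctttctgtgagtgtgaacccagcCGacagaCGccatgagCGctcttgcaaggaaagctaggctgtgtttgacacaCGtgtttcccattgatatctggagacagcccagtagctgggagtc
Sgcd gene start, chr11:47988970-47989119: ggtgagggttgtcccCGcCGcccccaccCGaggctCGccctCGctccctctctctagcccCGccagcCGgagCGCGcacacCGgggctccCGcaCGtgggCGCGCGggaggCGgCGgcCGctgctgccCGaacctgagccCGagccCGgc

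The stretch before the inner start of Gtdc1 held 1 CG and that before its gene start held 12. For Sgcd the numbers were 4 and 21, and G and C made up 52% of the bases at each inner start against 66.7% (Gtdc1) and 80% (Sgcd) at the gene start. CG reads the same on both strands, and among the 150 bases before the starts of 32851 RefSeq promoters (GRCm38.p6) 85.7% held at least 1 and the median was 4. Both gene starts were thus rich in CG and both inner starts were at or below the median of all promoters. In the 40 kb before the inner start of Sgcd the mean level was 0.591, 0.187 and 0.378 RPKM in replicates 1, 2 and 3, and 0 of 17 windows were enriched. In the 40 kb after it the level was 2.38, 3.29 and 2.69 RPKM, and 19 of 20 windows were enriched. The levels on the 2 sides did not overlap between replicates. For Gtdc1 the levels were 0.815, 0.733 and 0.643 RPKM before the start and 2.00, 2.14 and 2.25 RPKM after it, again without overlap. There 4 of 20 windows before the start and 18 of 20 after it were enriched. Gtdc1 as a whole had at least 80% of its windows enriched, so the part before its domain was not free of the mark. Sgcd had further domains, of 84 kb at the gene start and of 194 kb downstream of the one described. As the domains were chosen by these values, no test was made of them.

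A window was called enriched when its mean RPKM over the 3 replicates was above 1, which is the call the study used. RPKM here is the authors' value of reads scaled to library depth, in windows of a fixed size. The replicates held 7888140, 2692510 and 3166564 reads in valid windows, of which 15.6% to 16.1% lay in the long genes, and a value above 1 took 8, 3 and 3 reads. A single window therefore carried few reads, with medians of 6, 2 and 2 in these genes, whereas a whole gene carried 368 to 40075 reads with a median of 3334. Over the 541 genes the gene level correlated between pairs of replicates with Pearson's r of 0.982 to 0.993, a description across genes that share the same libraries. The spread between replicates had a median coefficient of variation of 6.89%, and it was above 20% in 58 genes, of which 52 were sparsely marked. The 2 genes of largest spread were Ankfn1 (0.348, 0.347 and 0.152 RPKM) and Tnr, which encodes the matrix protein tenascin-R (0.318, 0.406 and 0.171 RPKM).

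Of the windows in long genes 65199 were enriched, a share of 43.7% ± 2.37 (SD of the shares called in single replicates, n = 3). Called in single replicates, the share was 43.8%, 41.2% and 45.9%. Over all valid windows 31.8% were enriched, over autosomal windows 32.2%, and over autosomal windows outside annotated genes 15.8%. In protein-coding genes of 100 to 300 kb (1831 genes) the share was 56.0%, and in genes of 20 to 100 kb (7306 genes) it was 59.3%. The long genes thus lay above the genome and below both classes of shorter genes.

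The same order was seen in the mean level. Long genes had 1.12, 1.12 and 1.16 RPKM in replicates 1, 2 and 3, genes of 100 to 300 kb had 1.38, 1.41 and 1.46 RPKM, and genes of 20 to 100 kb had 1.46, 1.49 and 1.53 RPKM. In each replicate the long genes were the lowest, and their values did not overlap with those of either shorter class. The log2 ratio of long genes to genes of 100 to 300 kb was -0.32 ± 0.016 (SD, n = 3), a ratio of 0.800, and that to genes of 20 to 100 kb was -0.40 ± 0.017, a ratio of 0.760. Both differences exceeded the spread between replicates, and a two-sided permutation test with exact enumeration of the sign flips of 3 replicates returned p = 0.25 in either case. No smaller p is possible with 3 replicates. With 4 such tests made, the adjusted p (Benjamini-Hochberg) was 0.25 as well.

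Gene by gene, the enriched share covered the whole range from 0% to 100%, with a median of 41.3%, against a median of 66.1% in genes of 100 to 300 kb and 75.7% in genes of 20 to 100 kb. The number of genes at 10% or less was 114, the number at 90% or more was 69, and 71 lay between 40% and 60%. The shorter classes thus held more of their genes near 100%. Within the long genes the median share was 55.8% at 300 to 400 kb (202 genes), 38.9% at 400 to 600 kb (192 genes), 33.6% at 600 to 1000 kb (92 genes) and 36.4% at 1000 kb and more (55 genes). The mean level of a gene ran from 0.203 to 3.18 RPKM.

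**Figure D1:**
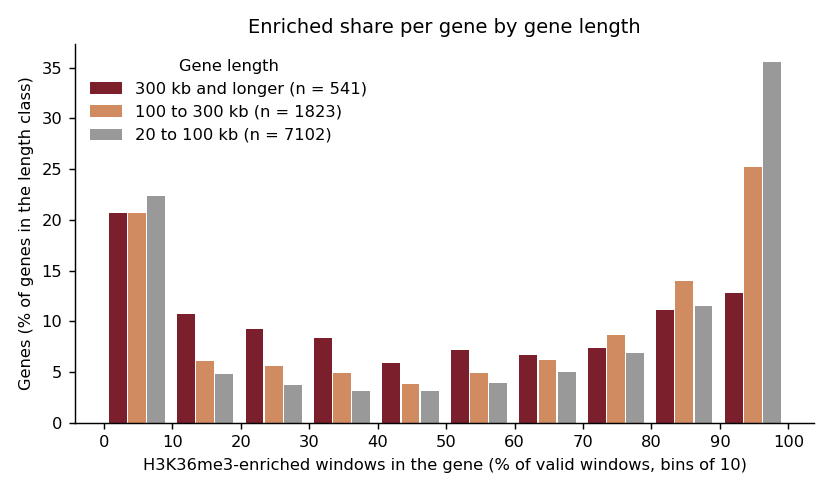
Percentage of genes (y axis) by the share of their windows that were enriched for H3K36me3 (x axis, bins of 10%), for genes of 300 kb and longer (541, dark red), 100 to 300 kb (1823 with at least 10 windows, orange) and 20 to 100 kb (7102 with at least 10 windows, grey). The bin from 90% to 100% held 12.8% of the long genes and 35.6% of the genes of 20 to 100 kb, while the lowest bin held 20.7% and 22.3%.

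The genes just inside and just outside the length limit differed widely among themselves. Kcnq3, a potassium channel gene of 300.3 kb, had 15.3% of its windows enriched, Pam (300.5 kb), which encodes an enzyme that amidates peptides, had 3.40%, and Nxph1 (300.6 kb), a ligand of neurexins, had 5.37%. Just below the limit, Jazf1 (299.8 kb) had 94.0%, Akap13 (299.1 kb) had 84.4% and Atp2b2 (298.8 kb) had 31.5%. The annotated span can also join neighbouring genes into 1 model. The 2 longest members, Gm20388 (4435 kb) and Fgfr2 (2961 kb), were of this kind: Fgfr2 spans 104 kb in RefSeq, and no RefSeq gene matched Gm20388 by symbol. Of the 541 genes 534 had a RefSeq match by symbol, and in 515 of these the RefSeq span was also at least 300 kb.

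Along the body, H3K36me3 was higher towards the 3′ end in each replicate. With the body cut into 3 equal parts, the mean level in the first was 1.00 ± 0.0038 RPKM (SD, n = 3) and that in the last was 1.27 ± 0.040 RPKM. In single replicates the log2 ratio of the last to the first was 0.31, 0.32 and 0.38, so that each replicate had the higher mean level at the 3′ side, with a mean ratio of 0.34 ± 0.041 and a fold of 1.26 (two-sided exact permutation test of sign flips, p = 0.25, the smallest possible). With the median over windows in place of the mean, which moves in steps of 1 read, the log2 ratio was 0.49, 0 and 0.58 (p = 0.5, exact permutation test), with no difference in replicate 2. In 10 equal parts, the mean went from 0.944 RPKM in the first to 1.38 RPKM in the last. In the intergenic 10 kb before the start it was 0.583 RPKM, and in the 10 kb after the end it was 0.860 RPKM.

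**Figure D2:**
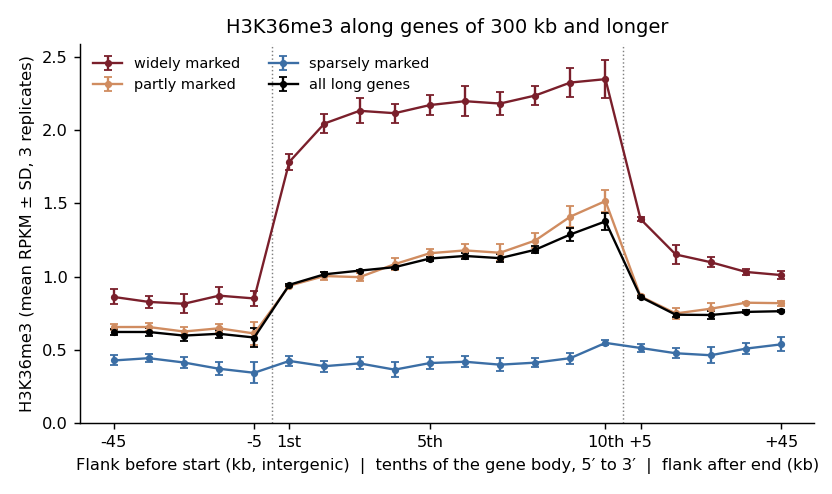
Mean H3K36me3 level (RPKM, y axis; points are means and bars the SD of 3 replicates) in 10 equal parts of the gene body from 5′ to 3′ and in intergenic flanks in steps of 10 kb (x axis), for all 541 long genes (black) and for widely (dark red), partly (orange) and sparsely marked genes (blue). The level over all long genes went from 0.944 RPKM in the first part to 1.38 RPKM in the last.

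For description, the genes were put into 3 classes by the enriched share. A gene was called widely marked with at least 80% of its windows enriched, partly marked with 20 to 80%, and sparsely marked with under 20%. There were 129 widely marked genes (23.8%), 242 partly marked genes (44.7%) and 170 sparsely marked genes (31.4%). Among genes of 100 to 300 kb with at least 10 windows the shares were 39.2%, 34.1% and 26.7%, and among those of 20 to 100 kb they were 47.1%, 25.8% and 27.1%. At 1000 kb and more, 4 of 55 genes were widely marked. Called from single replicates, 53 of the 129 widely marked, 229 of the 242 partly marked and 117 of the 170 sparsely marked genes kept their class in all 3 replicates, at a depth where a window turned on a few reads.

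The 10 genes with the largest enriched share held 98.2% to 100% and included regulators of the cytoskeleton, vesicle traffic and signalling. In Prickle2 (chr6:92370908-92706155), a gene of planar cell polarity, each of the 168 windows was enriched, with a gene level of 2.41, 2.71 and 2.54 RPKM in replicates 1, 2 and 3. In Sorbs2 (chr8:45507788-45827906), an adaptor of the actin cytoskeleton, each of the 160 windows was enriched at 2.22, 2.43 and 2.35 RPKM. These were the 2 genes without a single window at or below 1. Itpr1, the inositol trisphosphate receptor that releases calcium at egg activation, had 98.8% of its windows enriched at 2.70, 2.95 and 2.86 RPKM. Mad1l1, a component of the spindle assembly checkpoint, had 99.4% at 2.68, 2.75 and 2.76 RPKM. Bmpr1b, a receptor for bone morphogenetic proteins that is known for its part in ovarian function, had 99.4% at 2.29, 2.45 and 2.30 RPKM. The remaining 5 were Sorcs2, a sorting receptor (99.5%), Myo5b, a motor of vesicle transport (99.4%), Unc5c, a netrin receptor (98.3%), Trappc9, a subunit of a vesicle tethering complex (98.3%), and Tln2, which links integrins to actin (98.2%). In each of the 10 genes no window was called for H3K27me3.

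At the other end, 4 genes had no enriched window. Dok6 (chr18:89292424-89769528), an adaptor of receptor kinases, had 0 of 221 windows enriched, which allows a share of up to 1.36%, and a level of 0.237, 0.249 and 0.123 RPKM. It was also the gene with the lowest level. Ebf1 (chr11:44617317-45008091), a transcription factor of B cell development, had 0 of 195 windows enriched, which allows up to 1.54%, and 95.4% of its windows were called for H3K27me3. Itgbl1 had 0 of 128 windows enriched (up to 2.34%) and Ofcc1 had 0 of 177 (up to 1.69%). The fifth was Hs3st4, a heparan sulphate sulphotransferase, with 0.483%. These limits treat windows as independent draws and cover counting of windows only, not the spread between replicates. In Ankfn1, for example, the share was 0.521% with all replicates. With replicate 1, 2 or 3 left out it was 2.08%, 1.04% and 3.65%. Dok6 and Ebf1 differed in the other mark: H3K27me3 was called in 18.6% of the windows of Dok6, and 80.1% of its windows had no mark at all, against 4.10% in Ebf1.

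The categories of the windows differed along with the class. H3K27me3 was called in 27.7% of the windows of long genes and H3K4me3 in 21.1%, against 30.6% and 28.7% of all autosomal windows. Both calls are single sets made by the authors from libraries published before, without replicates here. In widely marked genes the share of windows with H3K27me3 had a median of 0% per gene, and 83 of 129 genes had none. In partly marked genes the median was 14.4% and in sparsely marked genes 59.7%. Across the 541 genes the enriched share and the H3K27me3 share had a Spearman correlation of -0.77, and for H3K4me3 it was -0.18, both given as a description across genes of the same libraries. Sparsely marked genes were not uniform: 98 of 170 had H3K27me3 in at least 50% of their windows, in 37 at least 50% of the windows had no mark, and 5 had H3K4me3 in at least 50%.

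**Figure D3:**
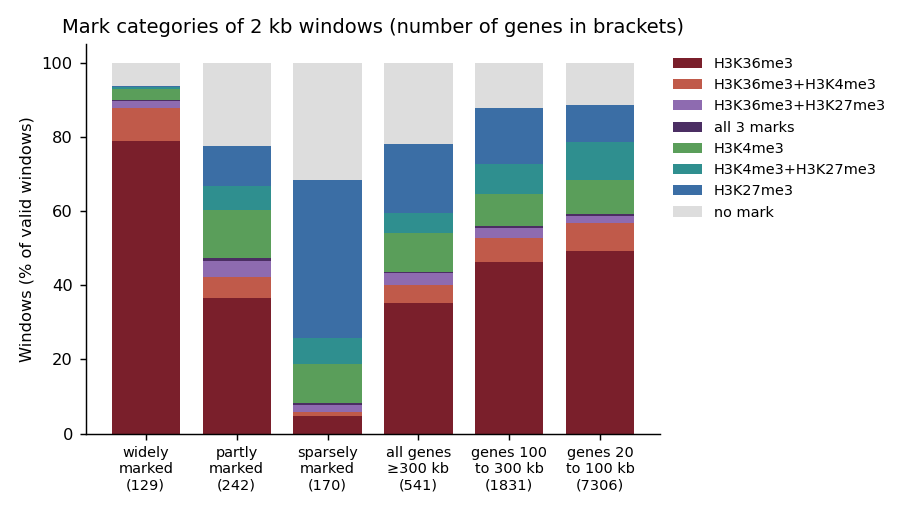
Percentage of valid windows (y axis, bars stacked to 100%) in each combination of the H3K36me3, H3K4me3 and H3K27me3 calls, for the widely, partly and sparsely marked long genes, all 541 long genes, and the 2 shorter length classes (number of genes in brackets). H3K27me3 without another mark took 42.6% of the windows of sparsely marked genes, 10.9% in partly marked and 0.260% in widely marked genes.

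The 5 genes with the largest share of H3K27me3 were Prkce (99.2%), a protein kinase C, Gabbr2 (98.2%), a subunit of the GABA-B receptor, Cacna1c (97.7%), an L-type calcium channel, Ltbp1 (97.4%), which binds latent TGF-beta, and Galnt18 (96.8%), an enzyme of mucin-type glycosylation. All 5 were sparsely marked, with 0.518% to 6.12% of windows enriched for H3K36me3. Prkce (chr17:86167785-86657919) had a level of 0.466, 0.427 and 0.322 RPKM. The 5 genes with the largest share of H3K4me3 were Pakap (67.5%), Cntnap4 (64.7%), a synaptic adhesion gene, Nedd4l (62.4%), a ubiquitin ligase, Dlc1 (62.3%), a GTPase-activating protein, and Dner (60.7%), a Notch ligand. Their enriched shares for H3K36me3 ran from 10% in Cntnap4 to 47.9% in Nedd4l.

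Within long genes H3K36me3 and H3K27me3 were called in the same window in 5579 windows, against 18045 expected from the shares of both marks, a ratio of 0.309. With H3K36me3 called in single replicates the ratio was 0.319, 0.477 and 0.425 (mean 0.407, SD 0.080, n = 3), each above that of the mean of the replicates. The ratio was 0.234 in genes of 100 to 300 kb and 0.188 in genes of 20 to 100 kb, and the differences between length classes were not tested. When the expected number was taken within each gene, the ratio in long genes was 0.604. For H3K4me3 there were 7959 windows with both calls against 13736 expected, a ratio of 0.579, and 0.624 within genes. In single replicates it was 0.620, 0.688 and 0.669 (mean 0.659, SD 0.035, n = 3), again each above the pooled value. Both counts were thus below the expected number, and for H3K27me3 the ratio was closer to 1 inside single genes than across them.

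Windows with both H3K36me3 and H3K27me3 were most numerous in Sox5, a transcription factor of cartilage and neurons (152 of 473 windows), in Cdh13, a cadherin anchored by lipid (130 of 517), and in Msi2, an RNA-binding protein (99 of 189). Msi2 (chr11:88339382-88718513) had 94.2% of its windows called for H3K27me3 and 55.6% for H3K36me3, at 1.37, 0.893 and 1.48 RPKM, and replicate 2 was the lowest. Sox5 (chr6:143828425-144781977) had 0.990, 0.883 and 1.09 RPKM and Cdh13 (chr8:118283733-119324921) had 1.13, 1.01 and 1.22 RPKM. In all 3 the replicate with less antibody had the lowest level, as it had over all partly marked genes (1.17, 1.13 and 1.21 RPKM). Over widely or sparsely marked genes it was not the lowest. The part of this replicate in these calls was not tested. One widely marked gene had H3K27me3 in over 50% of its windows. This was Cdh23, a cadherin of the inner ear (chr10:60302748-60696490), with 91.3% of windows enriched for H3K36me3 and 54.4% called for H3K27me3. Its level of 3.11, 3.30 and 3.14 RPKM was the highest of all 541 genes.

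Enrichment inside a gene was often not spread evenly but lay in domains. A domain was a run of enriched windows of at least 50 kb in which gaps of up to 2 windows were bridged. Windows missing from the valid set counted towards a gap, so a longer stretch of missing windows also ended a domain. A gene was said to have a partial domain when its domains covered 20 to 80% of its windows. This held for 181 of the 541 genes (33.5%). They had 468 domains of up to 416 kb (median 86 kb), and 58 domains were at least 200 kb long. In 57 genes there was a single domain, in 56 there were 2, and in 68 there were 3 or more. Domains came within 10 kb of the gene end alone in 77 genes, of the gene start alone in 23, of both in 18 and of neither in 63. Among genes of at least 1000 kb 50.9% had a partial domain.

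Because the domains were chosen by the level, their contrast was tested in a replicate that had not been used to set them. With domains set from the mean of 2 replicates, the third had 1.94 RPKM inside and 0.888 outside (replicate 1 held out), 1.90 and 0.786 (replicate 2), and 2.12 and 0.810 (replicate 3). The values inside and outside did not overlap. The ratios were 2.18, 2.41 and 2.62, with a mean log2 ratio of 1.26 ± 0.13 (SD, n = 3) and p = 0.25 (two-sided exact permutation test of sign flips, the smallest possible). Inside was higher than outside in 176 of 181 genes, 185 of 188 genes and 175 of 180 genes.

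The parts of these genes outside the domains carried the other marks more often. H3K27me3 was called in a median of 19.2% of windows outside and 0.239% inside, and the share was higher outside in 134 genes, lower in 17 and equal in 30. H3K4me3 was called in a median of 32.6% outside and 11.02% inside, and was higher outside in 160 genes and lower in 21. These calls were not used to set the domains, and they have no replicates. The GC content did not separate the parts in this way: its median was 40.8% inside and 41.0% outside, and it was higher inside in 86 genes and lower in 95.

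The longest domain in a partly marked gene belonged to the joined model Gm20388 (416 kb), and Fgfr2, with a domain of 318 kb, came last of the 10. Between them lay 8 genes of other kinds, in which the domain was found in different places. In Kcnma1, the calcium-activated BK potassium channel (chr14:23289431-24014491, minus strand), a domain of 414 kb began 182 kb downstream of the gene start, at chr14:23418001-23832000, with 2.47, 2.49 and 2.71 RPKM. The level in the windows of this gene outside its domains was 0.662 ± 0.17 RPKM (SD, n = 3) against 2.56 ± 0.14 inside, and 78.6% of the windows outside were called for H3K27me3 against 0% inside. In Lrmda, a gene of melanocyte differentiation (chr14:22019712-23056085, plus strand), a domain of 350 kb began 460 kb downstream of the start, with 2.29, 2.41 and 2.65 RPKM. Outside its domains H3K27me3 was called in 68.9% of the windows of Lrmda. Both of these domains ended near missing windows, so their 3′ ends need not be ends of the mark. In Kcnma1 the 10 kb bins from 590 and 600 kb held 4 and 3 valid windows. The bin from 610 kb, past that end, still had 2.15, 1.98 and 2.03 RPKM. In Lrmda the bin from 810 kb held 2 valid windows, and the bin from 820 kb had 1.90, 2.70 and 0.948 RPKM. In Tmem117, which encodes a membrane protein, a domain of 354 kb began 105 kb from the start and ran to 8.10 kb from the end, with 2.17, 2.27 and 2.46 RPKM. These 3 genes shared a long 5′ part in which H3K36me3 was mostly low. Single bins in it were higher: the first 10 kb of Kcnma1 had 2.06, 3.01 and 1.35 RPKM. In Tmem117 the bin from 80 kb had 2.04, 0.951 and 1.76 RPKM.

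The reverse order was found in Fars2, Wwox and Zfp407. Fars2, the mitochondrial phenylalanyl-tRNA synthetase (chr13:36117412-36726280, plus strand), had domains of 62 and 354 kb that together began 4.59 kb from the start and ended 182 kb before the end. Inside them the level was 2.17 ± 0.11 RPKM and outside 0.550 ± 0.12 RPKM, and 64.4% of the windows outside were called for H3K27me3 against 0% inside. Wwox, an oxidoreductase at a common fragile site (chr8:114439655-115352708, plus strand), had domains of 190, 358 and 52 kb, of which the first began 0.346 kb from the start. Inside the domains of Wwox the level was 2.27 ± 0.19 RPKM and H3K27me3 was called in 17.0% of windows, and outside it was 0.913 ± 0.037 RPKM and 80.5%. Zfp407, a zinc finger gene (chr18:84128027-84589725, minus strand), had a domain of 356 kb that began 25.7 kb from the start and ended 79.97 kb before the end, with 1.78, 1.89 and 2.05 RPKM. In these 3 genes it was the 3′ part that was low. Syt1, the calcium sensor of synaptic vesicle release, had a domain of 338 kb that began 131 kb inside the gene, with 58.6% of the windows outside it called for H3K27me3. Nrg3, a ligand of the receptor ERBB4, differed from the others, since H3K27me3 was called in 1.69% of its windows outside the domains, where the level was 0.888 ± 0.083 RPKM.

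**Figure D4:**
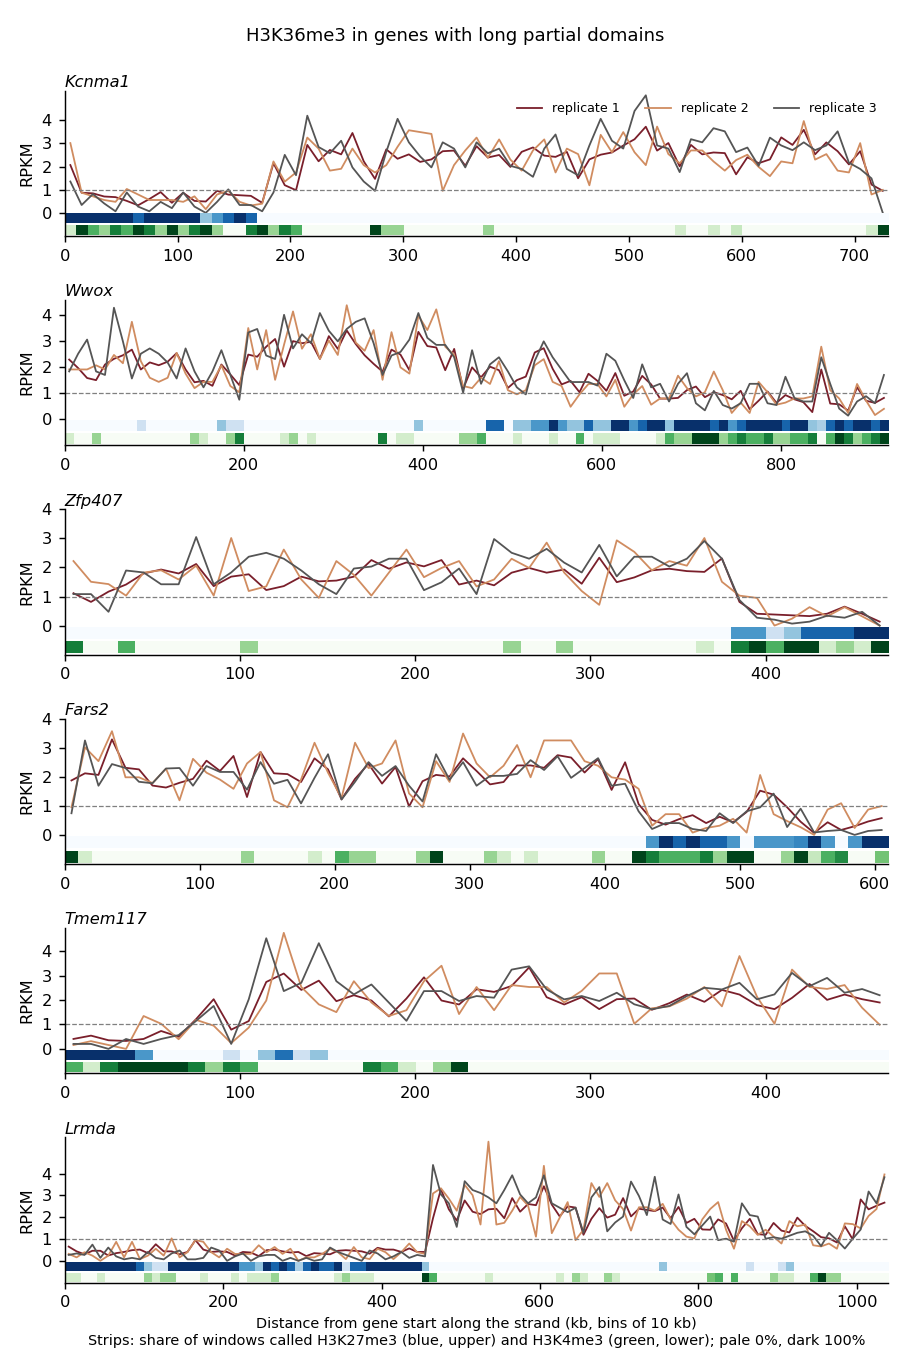
H3K36me3 (RPKM, y axis, mean of bins of 10 kb) against distance from the gene start along the strand (kb, x axis) in 6 partly marked genes with long domains, with a line per replicate and the enrichment limit of 1 dashed. Strips below show the share of windows called H3K27me3 (blue) and H3K4me3 (green) from pale (0%) to dark (100%): in Kcnma1, Tmem117 and Lrmda the low part lies 5′ of the domain and in Wwox, Zfp407 and Fars2 it lies 3′ of it.

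The 5′ edges of domains were compared with the annotated transcript starts of the same gene. Of the partial domains 427 had their 5′ edge over 10 kb inside the gene. An own transcript start lay within 2 kb of the edge in 4.68% of them, within 4 kb in 8.43% and within 10 kb in 14.5%. Over all windows of the same genes that lay over 10 kb from the gene start, the corresponding shares were 2.09%, 3.98% and 9.10%. Edges thus had an annotated start nearby more frequently than the windows at large, and at most inner edges none lay within 10 kb. Windows without H3K36me3 enrichment in the 6 kb before a 5′ edge were called for H3K4me3 in 54.0% of cases, against 48.4% at 6 to 30 kb. After 373 inner 3′ edges the shares were 40.7% and 40.2%. For H3K27me3 they were 7.55% in the 6 kb before a 5′ edge and 24.6% further away, and 10.2% and 19.8% after a 3′ edge. No test was made of these shares, which come from single calls. Part of the edges lay at missing windows. At -1, -3 and -5 kb from the 427 5′ edges there were 368, 297 and 315 valid windows. At 1, 3 and 5 kb from the 373 3′ edges there were 293, 232 and 268. Edges at missing windows were not told apart from edges of the mark.

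**Figure D5:**
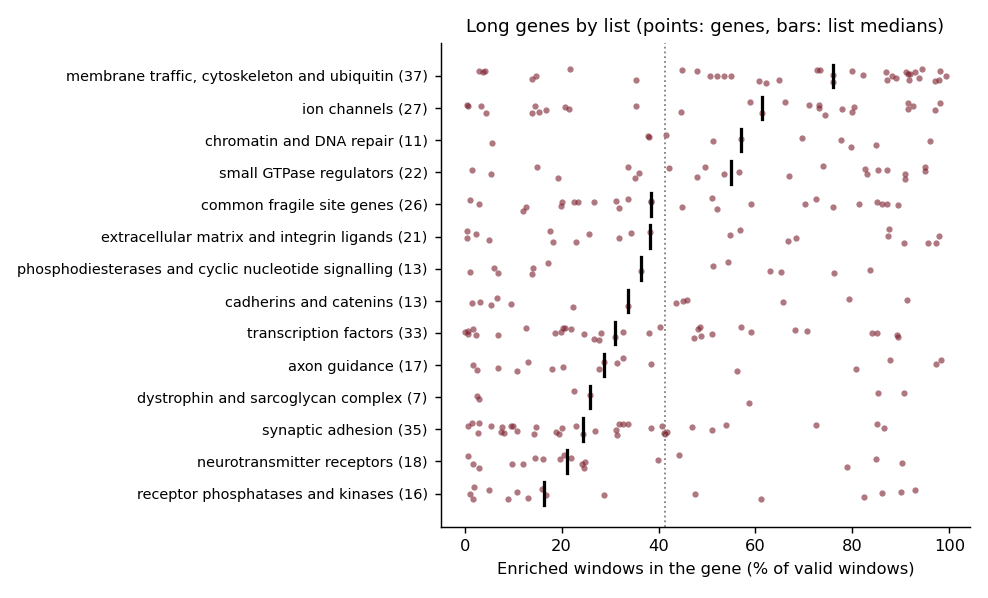
Enriched share of each long gene (points, x axis in % of its valid windows) in 14 lists of genes (number of long genes in brackets), with the median of each list as a black bar and the median of all 541 genes, 41.3%, as a dotted line. The list medians run from 16.3% in receptor phosphatases and kinases to 76.0% in membrane traffic, cytoskeleton and ubiquitin.

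By function, 268 of the long genes were on at least 1 of 14 lists, and the classes of each list were read against 23.8% widely marked and 31.4% sparsely marked over all long genes. The highest median belonged to genes of membrane traffic, cytoskeleton and ubiquitin, at 76.0%, with 16 of 37 genes widely marked and 5 sparsely. Its highest member was Myo5b, and its lowest was Nbea, which takes part in membrane traffic at synapses (3.01%). Small GTPase regulators had a median of 54.98%, with 8 of 22 widely and 4 sparsely marked. Arhgap26 has 2 overlapping gene entries, both widely marked, and counted once it left 7 of 21 widely marked and a median of 53.5%. Agap1, a GTPase-activating protein of ARF, was highest at 95.045% and Arhgap24 was lowest at 1.49%, while Dock4, an exchange factor of Rac, had a domain of 232 kb. Chromatin and DNA repair genes had a median of 57.1%, with 2 widely, 8 partly and 1 sparsely marked. The list also held Atrnl1 and Ccser1, which are not known as chromatin or repair genes, and without them the median was 69.7% over 9 genes, with 2 widely and 1 sparsely marked. Arid1b, a subunit of the BAF remodelling complex, had 96.0% of its windows enriched at 2.201, 2.268 and 2.257 RPKM. The sparsely marked member was Setbp1 (5.65%), and Ccser1 had a domain of 254 kb.

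The list of ion channels split widely, with 7 of 27 widely, 12 partly and 8 sparsely marked and a median of 61.4%. It also held the exchanger Slc24a3, which was widely marked, and auxiliary channel proteins such as Dpp6, Dpp10, Kcnip1 and Kcnip4. These values were not recomputed without them. Kcnh1, a voltage-gated potassium channel, had 98.1% of its windows enriched at 2.70, 2.63 and 3.03 RPKM. Among neurotransmitter receptors (median 21.2%, with 2 of 18 widely and 8 sparsely marked) Chrm3, a muscarinic acetylcholine receptor, had 90.2%, Grm5, a metabotropic glutamate receptor, had 0.772%, and Grm8, another of this family, was widely marked at 84.8% with a domain of 230 kb.

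Genes of cell adhesion and guidance lay lower. Synaptic adhesion genes had a median of 24.3%, with 2 of 35 widely, 18 partly and 15 sparsely marked. Cadm1 was highest at 86.6%, Lrrc4c lowest at 0.800%, and Sdk1 had a domain of 284 kb. Cadherins and catenins had a median of 33.8%, with 1 of 13 widely and 5 sparsely marked. Cdh23 was the widely marked member, Pcdh7 was lowest at 1.46%, and Pcdh15 had a domain of 248 kb. Axon guidance genes had a median of 28.7%, with 4 of 17 widely and 6 sparsely marked. In this list Unc5c and Epha5 were the extremes, the latter at 1.68%, and Dcc, a netrin receptor, had a domain of 240 kb. Receptor phosphatases and kinases had the lowest median, 16.3%, with 4 of 16 widely and 9 sparsely marked. Ptprm was highest at 93.0% and Ntrk3, the receptor of neurotrophin-3, lowest at 1.09%. Ptprd, the third longest gene at 2271 kb, had 15.9% of its windows enriched at 0.539, 0.531 and 0.499 RPKM.

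Transcription factors were most often partly marked (20 of 33), with 4 widely and 9 sparsely marked, a median enriched share of 31.1% and a median H3K27me3 share of 49.3%. Auts2, which is also a common fragile site gene, was highest in both lists at 89.4%, Ebf1 lowest, and Zfhx3 had a domain of 266 kb. Auts2 is not known as a DNA-binding factor, and it was counted here among the 4 widely marked genes. The common fragile site genes, which break under replication stress, had a median of 38.4%, with 5 of 26 widely, 16 partly and 5 sparsely marked. Dpyd, an enzyme of pyrimidine breakdown, was lowest at 1.18%. Extracellular matrix genes and integrin ligands had a median of 38.1%, with 6 of 21 widely and 6 sparsely marked. They ran from Thsd4 at 97.8% to Tnr at 0.495%, and Spock1 had a domain of 170 kb. Genes of phosphodiesterases and cyclic nucleotide signalling had a median of 36.4%, with 1 of 13 widely and 6 sparsely marked. Prkca, Prkcb and Prkce on this list are protein kinase C genes, and without them the median was 26.8% over 10 genes, with 1 widely and 5 sparsely marked. Pde4b was highest at 83.7% with a domain of 288 kb, and Adcy2 lowest at 1.08%. The dystrophin and sarcoglycan complex had a median of 25.8%, with 2 of 7 widely and 2 sparsely marked. Lama2, the laminin that binds this complex, was highest at 90.6%, Sgcz lowest at 2.61%, and Sgcd, shown above, was partly marked at 58.6%. No test of the lists was made, since several share members and all were chosen with earlier results of these data known.

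In base composition the widely marked genes had a median GC content of 43.1%, the partly marked 40.4% and the sparsely marked 40.02%, and the enriched share and GC had a Spearman correlation of 0.34 across the 541 genes. A RefSeq promoter within 1 kb of the gene start was found for 320 genes. Its CpG ratio, observed over expected, was at least 0.6 in 72.3% of widely marked, 66.4% of partly marked and 60.2% of sparsely marked genes, against 35.8% of all RefSeq promoters. The last share covers all 32851 RefSeq promoters, with no filter by gene type or by distance from a gene start. Shorter genes were not compared, so the sets are unlike. In each class most of the promoters found in this way were rich in CpG. Of the 541 genes 401 were matched to a RefSeq promoter by symbol. Genes without a match, or with a matched promoter over 1 kb away, were not counted, and a missing match need not mean a missing promoter. Base composition can also change how well fragments are recovered, and its part in the levels was not tested. Of the windows in long genes 6.94% also lay in another annotated gene, and 52.0% of these were enriched against 43.1% of the others.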

How the data were processed

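H3K36me3 ChIP-seq of 3 pools of GV oocytes was analysed from processed tables. By the study's methods, the authors mapped reads to GRCm38 with Bowtie2 (2.2.9 in the submitters' processing notes), quantified them in SeqMonk over windows of 2 kb and removed windows with extreme input signal. The deposited RPKM values are linear and per replicate. All were whole multiples of the value of 1 read, which gave the read totals, and they were treated as proportional to CPM. Whether duplicate reads were removed was not given in the sources used here, so reads may include PCR copies. The deposited category names (no measurement) gave the H3K27me3 and H3K4me3 calls. Windows without a category were taken as unmarked, and the H3K36me3 call equalled a mean RPKM above 1 with 0 differences. The RPKM values were thus given per replicate, while the authors' H3K36me3 call was that of the mean over the 3 replicates.

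Windows were assigned to GENCODE M21 genes by midpoint. Analyses used Python 3.11.15, numpy 2.4.6, pandas 2.3.3, scipy 1.17.1 and matplotlib 3.10.9, with no pseudocount, and were tested on simulated data. Levels are means over windows. Contrasts were log2 ratios within each replicate, tested by two-sided permutation with exact enumeration of sign flips. The labels do not say that the pools came from separate animals, so the spread between these samples may be technical. With 3 replicates the permutation p is 0.25 whenever all 3 log2 ratios have the same sign. It therefore does not measure their spread. Intervals and limits cover counting error only. Genes were named by rule (at least 100 windows): the largest and smallest enriched shares, the longest partial domains, the most H3K27me3, H3K4me3 or joint calls, the longest genes, those next to the length limit, the largest spread, and in each list the extremes and the longest partial domain (some of these are not reported here). Gtdc1 and Sgcd were chosen for their sequences after their values were seen, with chromosome 18 not searched. Members and lists were chosen with earlier results of these data known. The alternatives tried were the enrichment limit, gene length, gene span, overlapping genes, low values, domain settings and each replicate left out. Lists without members outside their name were chosen after seeing the data.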

Additional observations from a re-analysis of the deposited data

Results flagged for a closer look

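The X chromosome lay outside the autosomal rule and was looked at as data that no comparison above used. It had 26 such genes of 300 kb or more, with 7629 windows, of which 29.2% were enriched for H3K36me3 (2231 windows). Over all 66273 windows of the X chromosome 24.9% were enriched, and the difference between these shares was not tested. Called in single replicates the share was 30.3%, 31.2% and 34.998%. Of these genes 2 were widely marked, 14 partly and 10 sparsely. Dmd, the dystrophin gene, had 37.8% of its 1080 windows enriched. The difference from the autosomal genes was not tested.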

How the results depend on the processing

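Of 128 recomputed values 27 were labelled as moved. Enriched shares and co-occurrence ratios were judged by the spread between replicates, and counts by a factor of 1.5. Log2 ratios were judged by their sign alone, and none of them changed sign in the alternatives run. Their moves beyond the spread were not counted. With medians, the log2 ratio to genes of 100 to 300 kb was -0.58, against -0.32 ± 0.016 in the main setting. With a limit of 1.5 the enriched share was 31.3%, the H3K4me3 co-occurrence ratio 0.417 and the number of widely marked genes 54. With a limit of 2 these were 20.5%, 0.330 and 9, with 320 sparsely marked genes, 119 genes with a partial domain and an H3K27me3 ratio of 0.208. A value above 1 in each replicate gave a share of 27.2%, and leaving out windows with under 3 reads gave 50.3%. A minimum length of 200 kb gave 46.5% with 270 widely, 407 partly and 275 sparsely marked genes and 315 with a partial domain. A minimum of 500 kb gave 40.1% with 36, 114 and 68 genes and 76 with a partial domain, counts that follow from the number of genes. Class limits of 70% and 30% left 152 partly marked genes, and limits of 90% and 10% gave 69 widely and 112 sparsely marked. Expected numbers within genes gave ratios of 0.604 for H3K27me3 and 0.624 for H3K4me3. Leaving out 1 replicate moved 1 of these results by more than the spread, the H3K4me3 ratio, which was 0.586 to 0.621 with the highest value without replicate 3. Across all alternatives the log2 ratio to genes of 100 to 300 kb ran from -0.58 to -0.26, to genes of 20 to 100 kb from -0.77 to -0.31, of the last to the first of 3 parts from 0.29 to 0.38 (with medians 0.36 and no difference in replicate 2), and inside to outside of held-out domains from 0.59 to 1.67. Genes also of at least 300 kb in RefSeq, an alternative chosen after seeing the data, gave a share of 43.6% with 127, 227 and 161 genes. Apart from how these settings are built, the cause was not tested. For the named genes 114 of 385 enriched shares moved by more than the spread, 13 of them among 231 with 1 replicate left out. No paired analysis was possible because there was a single group and no second one whose replicate numbers could be matched; contrasts between regions were taken within each replicate. Replicates 2 and 3 were shallow, so that single windows rested on 2 or 3 reads and class calls from 1 replicate were unstable.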
